A study of Mus musculus with 31 samples.

Results

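The comparison is of GRKO control tumors with parental control tumors, taken from the group and treatment that the labels give, and it holds 10 of the 31 samples of the series. The samples are mouse melanoma material profiled by QuantSeq 3′ sequencing, a method that counts reads from the 3′ ends of polyadenylated RNA. The parental line, 20967, came from a C57BL/6 mouse with the genotype Nras+LSL-G12D;Tyr::CreERT2+/o, in which Cre from a melanocyte promoter switches on mutant NRAS. GRKO is a clone of that line in which the glucocorticoid receptor gene Nr3c1 was edited with CRISPR-Cas9 protein and guide RNA. Cells of either line were grafted intradermally into wild-type C57BL/6 mice, and the comparison uses 5 parental and 5 GRKO tumors labelled Control, whose agent, harvest day, age and sex the labels do not give. The other tumors, 5 of each genotype, received clobetasol propionate 0.05% ointment 3 times weekly (GC tumors), and 11 cultures of both lines received DMSO or a glucocorticoid. The comparison asks how tumors of the knockout line differed from tumors of the parental line with no glucocorticoid applied. GRKO is a single clone, so that the effect of losing the receptor and the effect of picking that clone cannot be told apart. Host cells in every tumor carried an intact receptor gene. Total counts ran from 15528066 to 26386770 per control tumor. Levels are given as normalised CPM, the counts of a gene scaled to a common library total after TMM scaling, written CPM from here on, and differences as GRKO minus parental on the log2 scale with their SE, for 5 tumors per group.

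The glucocorticoid receptor is a nuclear receptor held in the cytoplasm by HSP90 and its co-chaperones. A bound steroid frees it to enter the nucleus, where it switches on genes such as Fkbp5, Tsc22d3 and Per1 and holds down many inflammatory genes. Nr3c1 (ENSMUSG00000024431, chr18:39410545-39519421 on GRCm38) had 63.4, 57.1, 44.9, 55.6 and 52.2 CPM in the parental tumors and 20.7, 27.3, 31.4, 31.8 and 23.5 CPM in the GRKO tumors. The GRKO tumors all stayed below the parental tumors but none was near 0, and the difference was −1.02 ± 0.24 (adjusted p = 0.0313). Tumor bulk RNA holds host cells with an intact Nr3c1, and 3′ reads do not show whether the edit disrupts the transcript, so that these levels do not measure the receptor in the melanoma cells. In the cultures, which hold no host cells, the Nr3c1 difference was −0.67 ± 0.22 (adjusted p = 0.0840), and in the GC tumors it was −0.02 ± 0.24 (adjusted p = 0.981). The test of the difference between control and GC tumors gave an adjusted p of 0.127. With the number of genes detected as a covariate the Nr3c1 value in control tumors was −0.63 (adjusted p = 0.356). With the share of counts on the gene model Gm42418 as a covariate it was −0.88 (adjusted p = 0.0983), and neither passed. Without the control tumors above 5% Gm42418 it was −0.73, with 1 GRKO tumor left. Nr3c1 lost its call when any control tumor other than GRKO tumors 3 and 4 was left out (8 of 10 refits), with log2 values from −1.09 to −0.94 and adjusted p from 0.0144 to 0.0860.

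The control libraries differed in composition before any gene was tested. Gm42418, a gene model that overlaps ribosomal RNA sequence, took 5.55, 1.76, 1.24, 1.70 and 0.439% of the counts in the parental tumors and 11.6, 8.97, 6.57, 0.248 and 16.3% in the GRKO tumors. GRKO tumors 1, 2, 3 and 5 and parental tumor 1 were above 5%, GRKO tumor 4 was the lowest of all 10, and the groups overlapped (exact permutation p = 0.0635, two-sided, n = 5 per group). Mitochondrial genes took 1.46, 2.47, 1.25, 1.35 and 1.46% of the counts in the parental tumors and 0.587, 0.629, 0.755, 1.15 and 0.976% in the GRKO tumors. These shares did not overlap, with every GRKO tumor lower (exact permutation p = 0.00794, the smallest that 5 against 5 tumors allow). The Wilson 95% bounds of each share lie within 0.0163 percentage points for Gm42418 and 0.00688 for the mitochondrial genes, which covers counting error only. At equal depth 15578, 16681, 16094, 16762 and 15775 genes were detected in the parental tumors and 13399, 14794, 15142, 16780 and 14265 in the GRKO tumors (exact permutation p = 0.0794). GRKO tumor 4 had the most genes and GRKO tumor 1 the fewest. The 50 most abundant genes held 17.9% to 22.3% of the counts in the parental tumors and 17.6% to 32.7% in the GRKO tumors (exact permutation p = 0.0476). In the GC tumors Gm42418 took 0.70% to 2.78% of the counts in parental and 0.80% to 6.65% in GRKO tumors. The part of these library differences in the gene differences was not tested beyond the refits given below.

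**Figure D1:**
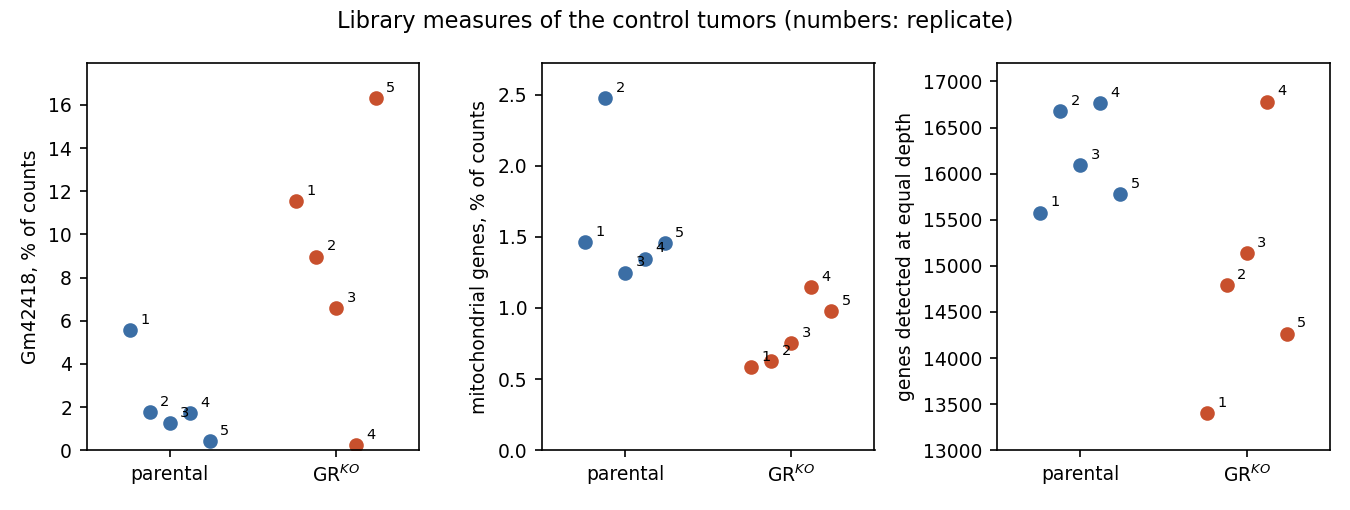
Composition of the 10 control libraries. Each point is a tumor, labelled with its replicate number, and the panels give the share of counts in Gm42418, the share in mitochondrial genes and, on an axis that does not start at 0, the genes detected when libraries are brought to equal depth. Of the GRKO tumors 4 lie above 5% Gm42418, and GRKO tumor 4 has the lowest share of Gm42418 and the most genes.

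Called genes in tumors of the knockout line included single matrix and nerve genes in both directions. They are named as single genes and not as a tested group. The matrix genes Mgp, Col11a1 and Adamts1, the mesenchymal cadherin gene Cdh11 and the nerve gene Stmn2 were lower. The matrix genes Thbs2 and Mmp3, the receptor genes Gfra2 and Tnfrsf18, the nerve gene Uchl1 and the cell cycle inhibitor gene Cdkn1a were higher. Of 15919 genes tested, 358 differed (2.25%), with 201 higher (1.26%) and 157 lower (0.986%) in the GRKO tumors. A gene counts as differing, or as called, when its adjusted p in edgeR is under 0.05 and its linear fold is at least 1.5. The median log2 value was 1.08 among the higher and −1.21 among the lower genes, against −0.04 over all genes tested, and 348 of the 358 were protein coding. Among the tested genes, 624 had levels in the 5 GRKO tumors that did not overlap those in the 5 parental tumors (3.92%), and 125 of the higher and 119 of the lower called genes were of that kind. In bulk tumor RNA, fewer cells of a type and less RNA per cell cannot be told apart.

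The number of called genes rested on single tumors. Leaving out parental tumors 1 to 5 in turn gave 161, 88, 63, 73 and 201 genes, and leaving out GRKO tumors 1 to 5 gave 70, 61, 213, 1762 and 193 genes. The count of 1762 came without GRKO tumor 4, the GRKO library with the least Gm42418. With the log2 share of Gm42418 as a covariate 69 genes were called, 52 of them among the 358, and with the number of genes detected as a covariate 51 were called. Without the 5 tumors above 5% Gm42418, which left 4 parental tumors and GRKO tumor 4, edgeR called 0 genes, with 754 at an unadjusted p under 0.05, and DESeq2 called 63. A call lost with 1 GRKO tumor left does not show that a difference is lost. The median log2 value of the called genes was 0.51 for the higher and −0.96 for the lower genes there, in tumors that had also served to call them. With Gm42418 left out of the counts 356 genes were called, 342 of them among the 358, and Nr3c1 differed by −1.03 (adjusted p = 0.0343). These refits on Gm42418 were chosen after seeing the data. Of 42 gene lists, the median changed sign in 10 without GRKO tumor 4, in 10 with the Gm42418 covariate and in 14 without the 5 tumors above 5% Gm42418, and the summed levels did not overlap between the genotypes in 5. Brackets after a list median give its values in these 3 refits in this order. They also give the genes of the list called higher and lower in the first 2, as the third left 1 GRKO tumor. Over all genes, the first refit called 868 higher and 894 lower of 15851 tested. The second called 15 higher and 54 lower of 15919. The list counts of a refit are to be read beside these and not beside the 358. Of the 69 called genes that are named by the rule for naming, 23 were called in each of the 10 refits that left out a tumor, and 34 lost their call in more than 5 of them.

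Mgp, Col11a1, Col10a1 and Adamts1 encode proteins of the extracellular matrix, and all were lower in GRKO tumors. Mgp (ENSMUSG00000030218, chr6:136872435-136875823), matrix Gla protein, an inhibitor of calcification, had 1500.4, 1512, 3157, 1795 and 2222 CPM in the parental tumors and 379, 169, 328, 345 and 291 CPM in the GRKO tumors. No GRKO tumor reached the parental range, and the difference was −2.75 ± 0.36 (adjusted p = 0.000236). Mgp differed by −1.59 in the GC tumors and −6.53 in the DMSO cultures, both called. Col11a1 (ENSMUSG00000027966, chr3:114030540-114220718), a chain of a fibrillar collagen of cartilage, had 8.40, 7.72, 8.13, 8.71 and 6.11 CPM in the parental tumors and 0, 1.67, 0.546, 0 and 0 CPM in the GRKO tumors. Every parental tumor stood clear of the GRKO tumors, at −4.14 ± 0.84 (adjusted p = 0.0191). Col10a1 (ENSMUSG00000039462, chr10:34389981-34397085), the collagen of hypertrophic cartilage, had 15.5, 22.9, 52.1, 15.8 and 56.6 CPM in the parental tumors and 4.18, 1.37, 2.94, 4.13 and 1.23 CPM in the GRKO tumors. GRKO tumors were all lower, by a log2 value of −3.55 ± 0.54 (adjusted p = 0.00212). Among the GC tumors Col10a1 differed by 0.20 ± 0.50 (adjusted p = 0.912), and the difference between control and GC tumors was −3.75 (adjusted p = 0.0330). Adamts1 (ENSMUSG00000022893, chr16:85793827-85803113), a secreted protease that cleaves matrix proteoglycans, had 89.5, 90.8, 107, 90.4 and 75.3 CPM in the parental tumors and 22.7, 28, 22.7, 25.9 and 20.5 CPM in the GRKO tumors. GRKO tumor 2 had the highest GRKO level and still lay far below each parental tumor, and Adamts1 had the smallest adjusted p of all genes tested, with −1.92 ± 0.19 (adjusted p = 8.2e-06).

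Genes of adhesion, hormone conversion and signalling were among the other lower genes. Cdh11 (ENSMUSG00000031673, chr8:102632095-102785642), a cadherin of mesenchymal cells, had 87.1, 93.2, 51.7, 86 and 50.8 CPM in the parental tumors and 16.3, 32.8, 11.1, 10.7 and 14.1 CPM in the GRKO tumors. The parental tumors were all higher, with a difference of −2.12 ± 0.33 (adjusted p = 0.00212), and Cdh11 was also called in the GC tumors, at −1.64 ± 0.32. Dio2 (ENSMUSG00000007682, chr12:90724552-90738438), the deiodinase that turns thyroxine into active thyroid hormone, had 176, 188, 239.8, 201 and 149.7 CPM in the parental tumors and 39.3, 28.4, 19.9, 60.4 and 50.8 CPM in the GRKO tumors. GRKO levels were low in all 5 tumors without overlap, at −2.26 ± 0.27 (adjusted p = 8.37e-05), and the difference was −2.05 in the GC tumors and −3.29 in the DMSO cultures. Tril (ENSMUSG00000043496, chr6:53815468-53820830), an accessory protein of toll-like receptor signalling, had 7.89, 12, 7.51, 11.8 and 13 CPM in the parental tumors and 0.586, 0, 0.137, 1.93 and 0 CPM in the GRKO tumors. It had 0 counts in GRKO tumors 2 and 5 and the lowest log2 value of the genes named here by their difference, −4.20 ± 0.80 (adjusted p = 0.0130). Pdgfrl, which encodes a PDGF receptor-like protein, had 11.3 ± 3.01 CPM in the parental and 1.72 ± 0.927 CPM in the GRKO tumors (SD) and differed by −2.69 ± 0.53 (adjusted p = 0.0152). Ccdc3, a secreted protein, differed by −2.38 ± 0.38 (adjusted p = 0.00265) at 44.9 ± 7.57 CPM in the parental and 8.54 ± 5.29 CPM in the GRKO tumors (SD). None of Cdh11, Dio2, Tril, Pdgfrl, Ccdc3, Mgp, Col11a1, Col10a1 and Adamts1 lost its call in the 10 refits that left out a tumor.

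Lower genes whose call depended on the tumors included Lama5, a laminin chain of basement membranes, with 15 ± 11.2 CPM in the parental and 2.40 ± 1.73 CPM in the GRKO tumors (SD) and −2.63 ± 0.61 (adjusted p = 0.0288). Agt, the angiotensin precursor, had 6.60 ± 1.72 CPM in the parental and 1.10 ± 0.839 CPM in the GRKO tumors (SD) and −2.59 ± 0.56 (adjusted p = 0.0252). Spry1, a feedback inhibitor of receptor tyrosine kinase signalling, had 22.7 ± 12.5 CPM in the parental and 5.86 ± 2.06 CPM in the GRKO tumors (SD) and −1.95 ± 0.45 (adjusted p = 0.0288). Agt lost its call in 1 of the 10 refits (−2.53 without parental tumor 3), Spry1 in 4 and Lama5 in 5. The 12 lower genes with the largest differences, at a mean of at least 5 CPM and with no overlap, had log2 values from −4.20 to −1.95. Without the 5 tumors above 5% Gm42418, Col11a1 had 0 counts in the GRKO tumor that was left and the other 11 genes had log2 values from −3.80 to −1.38, none of them called. With the Gm42418 covariate those called included Tril, Col11a1, Col10a1, Mgp, Pdgfrl, Agt, Ccdc3, Dio2 and Cdh11. Lama5 at −2.11 (adjusted p = 0.160) and Spry1 at −1.62 (adjusted p = 0.119) did not pass with it.

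**Figure D2:**
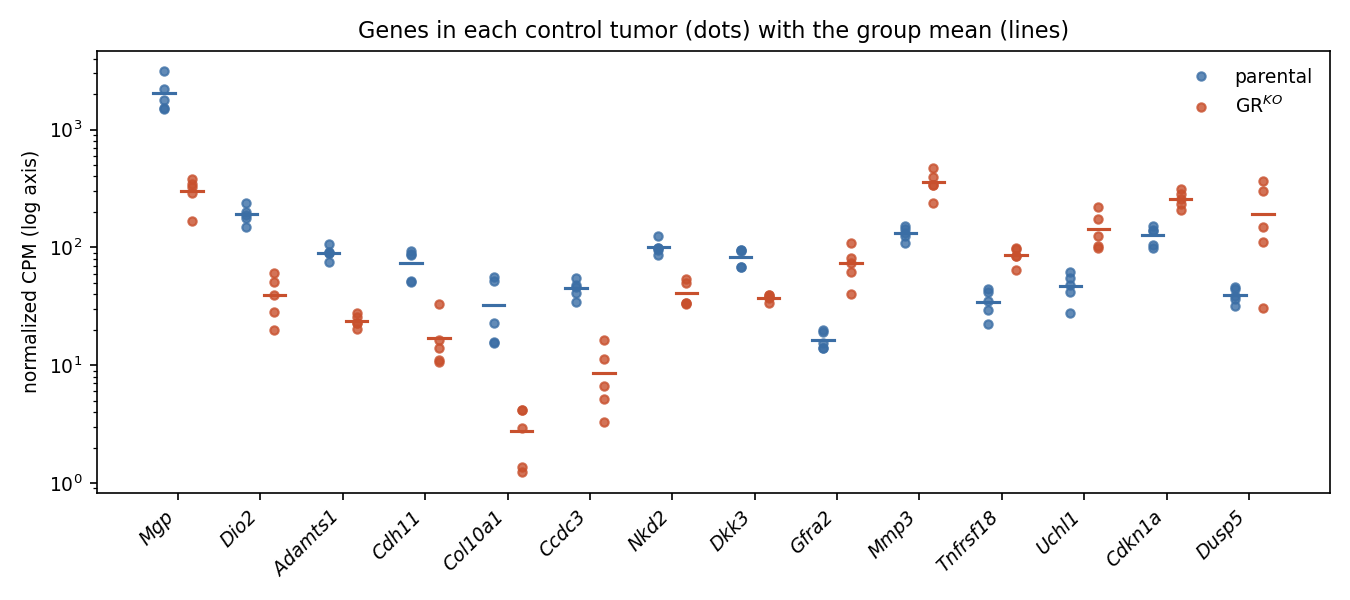
Levels of genes called between GRKO and parental control tumors, in normalised CPM on a log axis. Each point is a tumor and each line a group mean. The groups of 5 overlap for Dusp5, through GRKO tumor 4, and do not overlap for the other genes drawn.

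Gfra2, Sema3f, Gpihbp1, Uchl1 and Eya1 were higher in GRKO tumors. Gfra2 (ENSMUSG00000022103, chr14:70890120-70979838), the co-receptor for neurturin, which signals through RET, had 19.8, 19, 15.5, 14 and 14.1 CPM in the parental tumors and 109.8, 80.7, 40.5, 73.4 and 61.5 CPM in the GRKO tumors. Each GRKO tumor exceeded each parental tumor, at 2.15 ± 0.28 (adjusted p = 0.000236). Gfra2 went the same way in the GC tumors (1.24 ± 0.27) and the opposite way in the DMSO cultures (−2.09 ± 0.31), and was called in both. Sema3f (ENSMUSG00000034684, chr9:107681500-107710475), a secreted axon guidance cue, had 2.23, 2.49, 3.55, 3.73 and 1.64 CPM in the parental tumors and 14, 12.7, 20.7, 4.09 and 7.31 CPM in the GRKO tumors. Its groups did not overlap and differed by 2.11 ± 0.43 (adjusted p = 0.0191). Gpihbp1 (ENSMUSG00000022579, chr15:75596628-75599481), which carries lipoprotein lipase to the surface of capillary endothelium, had 1.97, 1.39, 1.13, 1.19 and 3.69 CPM in the parental tumors and 13.8, 14.7, 8.20, 7.14 and 14.7 CPM in the GRKO tumors. Levels were low in the parental tumors throughout, and the difference was 2.63 ± 0.44 (adjusted p = 0.00379). Uchl1 (ENSMUSG00000029223, chr5:66676091-66687234), a deubiquitinase of nerve cells, had 48.4, 27.9, 54.5, 42.1 and 62.1 CPM in the parental tumors and 218, 175, 98.1, 103 and 126 CPM in the GRKO tumors. All 5 GRKO tumors were higher, by 1.61 ± 0.30 (adjusted p = 0.0100). Eya1 (ENSMUSG00000025932, chr1:14168954-14310235), a transcriptional coactivator with phosphatase activity, had 1.08, 2.40, 2.47, 1.84 and 2.12 CPM in the parental tumors and 46.1, 6.03, 6.28, 4.86 and 3.26 CPM in the GRKO tumors. GRKO tumor 1 stood far above the others and the groups still did not overlap, with 2.73 ± 0.55 (adjusted p = 0.0191). Eya1 lost its call in 1 of the 10 refits (1.36 without GRKO tumor 1). Gfra2, Sema3f, Gpihbp1 and Uchl1 kept the call in all 10 refits that left out a tumor.

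Sult5a1, a sulfotransferase, had 2.27 ± 0.835 CPM in the parental and 9.70 ± 4.42 CPM in the GRKO tumors (SD) and differed by 2.09 ± 0.41 (adjusted p = 0.0152). Among the GC tumors its value was −1.69 ± 0.41 and did not pass (adjusted p = 0.0514). The difference between control and GC tumors was 3.78 (adjusted p = 0.0151). Ifi208, an interferon-inducible gene, had 14.4 ± 6.18 CPM in the parental and 59.4 ± 20.5 CPM in the GRKO tumors (SD) and differed by 2.05 ± 0.40 (adjusted p = 0.0152). Apol10b, of the apolipoprotein L family, had 4.27 ± 1.59 CPM in the parental and 17.2 ± 10.3 CPM in the GRKO tumors (SD) and differed by 2.01 ± 0.49 (adjusted p = 0.0347). Mgmt, which repairs methylated guanine in DNA, had 2.13 ± 0.844 CPM in the parental and 7.19 ± 2.67 CPM in the GRKO tumors (SD) and differed by 1.75 ± 0.45 (adjusted p = 0.0419). Ccn1, a matricellular protein induced by growth signals, had 12.8 ± 3.58 CPM in the parental and 39.6 ± 3.93 CPM in the GRKO tumors (SD) and differed by 1.63 ± 0.36 (adjusted p = 0.0252). Sult5a1 lost its call in 1 of the 10 refits (1.83 without GRKO tumor 2), Ifi208 in 1 (1.92 without parental tumor 3), Ccn1 in 5, Apol10b in 7 and Mgmt in 9. The 12 higher genes with the largest differences, which also include Usp18 and Ncr1, had log2 values from 1.61 to 2.73. Without the 5 tumors above 5% Gm42418 they had log2 values from 0.51 to 2.80, none of them called. With the Gm42418 covariate the called ones were Gpihbp1, Gfra2, Ifi208, Apol10b and Uchl1, and the other 7 had log2 values from 1.53 to 2.25 with adjusted p from 0.0520 to 0.148.

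Across all genes tested, 39 of the 358 were called in each of the 10 refits that left out a tumor, 15 higher and 24 lower, and 276 were called in at most 5 of them. Of the 39, 34 were also called with the Gm42418 covariate (11 higher, 23 lower), and 22 with that covariate and, separately, with the covariate for genes detected (5 higher, 17 lower). The set of 39 was singled out after its values were seen. Besides genes named above, the lower ones included the integrin gene Itga8, the endothelial peptide receptor gene Calcrl and the glypican gene Gpc6. They also included the growth arrest gene Gas1, the transcription factor gene Tbx18 and the matrix genes Edil3 and Sparcl1. Further lower ones were the Wnt inhibitor gene Nkd2, the Dickkopf family gene Dkk3, the nerve gene Stmn2, and Pld5, Kctd15, Rapgef4 and Tcaf1. The higher ones were the matrix and protease genes Thbs2, Crispld2, Cpxm1, Mmp3 and Mmp23, the integrin gene Itgb3, the ERK phosphatase gene Dusp5, the TNF receptor gene Tnfrsf18, Cdkn1a, Mast4 and the mitochondrial ribosome gene Mrpl2.

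Of 27 tested glucocorticoid receptor target genes, 1 was higher (Ccn1), 3 were lower (Fkbp5, Hif3a and Fam107a) and 23 did not pass the test. The median log2 value of the list was −0.22 (−0.39, −0.15 and −0.01 in the 3 refits, 2 higher and 5 lower in the first, 0 and 0 in the second), beside −0.04 over all genes. Fkbp5, a co-chaperone that the receptor induces and that holds it back, had 66.3, 54.9, 75.1, 73.7 and 86.2 CPM in the parental tumors and 14.2, 17.6, 33.5, 35.9 and 25 CPM in the GRKO tumors. The highest GRKO tumor was below the lowest parental tumor, and the difference was −1.50 ± 0.35 (adjusted p = 0.0296). Hif3a, a hypoxia-inducible factor subunit, had 3, 5, 0, 18 and 30 counts in the parental tumors and 0, 0, 0, 0 and 0 counts in the GRKO tumors. Fam107a, an actin-binding stress gene, had 3, 7, 8, 15 and 0 counts in the parental and 0, 0, 0, 1 and 0 counts in the GRKO tumors. In the GRKO tumors both genes were under the floor of 3 counts in every library, and only counts are given. Tsc22d3, the anti-inflammatory leucine zipper GILZ, had 88.4, 42.1, 72.4, 87.2 and 68.7 CPM in the parental tumors and 60.8, 45.4, 71.5, 89.1 and 62.3 CPM in the GRKO tumors. Its groups overlapped, at −0.12 ± 0.24 (adjusted p = 0.804), as did those of the clock gene Per1, at −0.33 ± 0.26 (adjusted p = 0.499). Mt1, a metallothionein and the most abundant gene of the list, had 713 against 1049 CPM (log2 0.56), and Tat was at 0 in the control tumors. Among the GC tumors the list median was −0.69, with 1 higher and 5 lower. Over all 15919 genes there the median was 0.01, with 31 higher and 70 lower. In the DMSO cultures the list median was 0.18. Fkbp5 lost its call in 8 of the 10 refits, Hif3a in 7 and Fam107a in 8.

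Of 19 tested chaperones and coregulators of the receptor, a list that holds Nr3c1 itself, 1 was lower (Nr3c1) and 1 higher, and the median was 0.20 (0.30, 0.04 and −0.16 in the 3 refits, 1 higher and 1 lower in the first, 0 and 0 in the second). The higher gene was Ncor1, a nuclear corepressor, with 474, 479, 349, 459 and 293 CPM in the parental tumors and 1082, 885, 569, 470.1 and 756 CPM in the GRKO tumors. The groups overlapped and differed by 0.87 ± 0.22 (adjusted p = 0.0393). Ncor1 lost its call in 8 of the 10 refits. The most abundant member, Hsp90ab1, the HSP90 chaperone that holds the receptor ready for steroid, had 2899.5 against 2981 CPM (log2 0.04) and did not pass the test.

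GARP, encoded by Lrrc32, tethers latent TGF-β to the cell surface and takes part in its activation. Lrrc32 had 68.8, 54.4, 70.1, 39.5 and 71.5 CPM in the parental tumors and 45.9, 68.6, 94.3, 59.8 and 45.5 CPM in the GRKO tumors. The groups overlapped, with a difference of 0.05 ± 0.25 (adjusted p = 0.942). In the GC tumors Lrrc32 was higher in GRKO, by 1.49 ± 0.26 (adjusted p = 0.00517), and in the DMSO cultures it was lower, at −2.92 ± 0.39 (adjusted p = 0.000788). The test of the difference between control and GC tumors gave −1.45 (adjusted p = 0.0820). None of the 22 tested genes for GARP, TGF-β ligands and their activation was called by edgeR, and the list median was 0.14 (0.24, −0.13 and −0.10 in the 3 refits, 2 higher and 3 lower in the first, 0 and 0 in the second). The ligand genes Tgfb1, Tgfb2 and Tgfb3 had log2 values of 0.15 ± 0.35, 0.49 ± 0.34 and −0.98 ± 0.31, and none of them was called (adjusted p = 0.846, 0.432 and 0.0848). The most abundant gene was Ltbp3, a latent TGF-β binding protein, at 489.6 against 557 CPM (log2 0.19).

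Of 21 tested TGF-β and BMP response genes, 1 was lower and none higher, and the median was −0.51 (−0.81, −0.13 and −0.27 in the 3 refits, 1 higher and 3 lower in the first, 0 and 0 in the second), beside −0.04 over all genes. Id3, a BMP-induced inhibitor of DNA-binding factors, had 34.3, 59.5, 75.9, 41.9 and 117 CPM in the parental tumors and 13.6, 19.1, 32.3, 17.3 and 25.1 CPM in the GRKO tumors. All GRKO tumors were lower, at −1.62 ± 0.39 (adjusted p = 0.0331). Id3 lost its call in 7 of the 10 refits. The summed level of the list was 2295, 2490.0, 2255, 2087 and 2475 CPM in the parental tumors and 2920.4, 3079, 3019.5, 2009 and 2789 CPM in the GRKO tumors. GRKO tumor 4 had the lowest sum of all 10 tumors and the other GRKO tumors lay above every parental tumor. The most abundant gene was Pmepa1 (1029.5 against 1492 CPM, log2 0.53). The list median was 0.55 in the GC tumors, with 1 higher and 0 lower, and 0.31 in the DMSO cultures. Over all 15919 genes 31 were higher and 70 lower in the GC tumors.

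The labels call the tumors melanoma, and several defining pigment genes were absent or low in both genotypes. Of 25 melanocyte lineage genes 16 passed the filter on low counts, none was called, and the median was −0.36 (−0.41, −0.41 and 0.23 in the 3 refits, 0 higher and 1 lower in the first, 0 and 0 in the second). Tyr, Oca2 and Gpr143 had 0 counts in the 10 control tumors. Dct, a melanin enzyme, had 6.24, 3.69, 6.22, 6.38 and 0.186 CPM in the parental tumors and 1.76, 3.28, 2.12, 1.16 and 5.16 CPM in the GRKO tumors. Sox10, the lineage factor of the neural crest, had 1.97, 2.35, 2.52, 2.11 and 0.521 CPM in the parental tumors and 0, 1.43, 0.751, 2.86 and 0.614 CPM in the GRKO tumors. These levels were at most a few CPM with overlapping groups. Mitf, the master regulator of melanocytes, had 36.9, 48.1, 25.1, 27.1 and 25.3 CPM in the parental tumors and 28.6, 26.3, 34.8, 20.9 and 19.7 CPM in the GRKO tumors. It was expressed in all tumors with overlap and differed by −0.32 ± 0.22 (adjusted p = 0.432). Apod, a lipid carrier and the most abundant gene of the list, had 100.3 against 150.2 CPM (log2 0.58).

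Of 24 tested genes of the neural crest and the invasive melanoma state, 1 was higher (Gfra2) and 1 lower, and the median was 0.15 (0.08, −0.11 and −0.38 in the 3 refits, 1 higher and 2 lower in the first, 1 and 0 in the second). The lower gene was Wnt5a, a noncanonical Wnt ligand, with 36, 33.4, 49.2, 41.2 and 52.3 CPM in the parental tumors and 19.9, 24.7, 29.8, 21.5 and 24.8 CPM in the GRKO tumors. GRKO tumors were all lower, at −0.81 ± 0.21 (adjusted p = 0.0399). The invasion receptor gene Axl did not pass, at 0.40 ± 0.20 (adjusted p = 0.270), and the most abundant member was Nes, the intermediate filament nestin, at 627 against 1036 CPM (log2 0.72). Of 18 tested Schwann and nerve cell genes, 1 was higher (Uchl1), 1 was lower and the median was 0.04 (−0.07, −0.18 and 0.54 in the 3 refits, 2 higher and 2 lower in the first, 1 and 0 in the second). Stmn2, a microtubule regulator of neurons, was the lower gene with 99.6, 122, 139, 119 and 140.2 CPM in the parental tumors and 68.1, 79.3, 68.8, 59.8 and 57.4 CPM in the GRKO tumors. The groups did not overlap, with every GRKO tumor lower, at −0.89 ± 0.18 (adjusted p = 0.0167). Ncam1, an adhesion molecule and the most abundant of that list, had 129 against 63.7 CPM (log2 −1.02). Of 27 tested cadherin and adhesion genes, Cdh11 was lower and Itgb3 higher, with a median of 0.12 (−0.13, 0.07 and 0.15 in the 3 refits, 4 higher and 2 lower in the first, 0 and 1 in the second). Itgb3, the integrin β chain that pairs with αv on invasive melanoma cells, had 43.7, 36.8, 63, 28.4 and 58.7 CPM in the parental tumors and 133, 138, 122, 65.9 and 104 CPM in the GRKO tumors. Each GRKO tumor was higher than each parental tumor, at 1.29 ± 0.24 (adjusted p = 0.0123). Cdh13, a cadherin with a lipid anchor and the most abundant of the list, had 386 against 661 CPM (log2 0.78). Wnt5a lost its call in 8 of the 10 refits. Stmn2 and Itgb3 kept the call in all 10 refits that left out a tumor. With the Gm42418 covariate Stmn2 at −0.81 (adjusted p = 0.0576) and Itgb3 at 1.02 (adjusted p = 0.0561) did not pass. Without the 5 tumors above 5% Gm42418 Itgb3 differed by 0.49.

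All the tumors carry the NRAS mutation, which drives the ERK cascade, and feedback genes of that cascade went in both directions. Of 20 tested RAS-ERK output genes, 1 was higher (Dusp5), 2 were lower (Spry1 and Phlda1), and the median was 0.04 (0.01, −0.03 and −0.34 in the 3 refits, 2 higher and 4 lower in the first, 1 and 0 in the second). Dusp5, a nuclear phosphatase that inactivates ERK, had 44.6, 39, 36.2, 46.2 and 31.6 CPM in the parental tumors and 364, 302, 148, 30.7 and 112 CPM in the GRKO tumors. GRKO tumors 1, 2, 3 and 5 were above every parental tumor and GRKO tumor 4 was below them, with 2.28 ± 0.38 (adjusted p = 0.00387). Without the 5 tumors above 5% Gm42418 the Dusp5 difference turned to −0.33. Dusp6, the cytoplasmic ERK phosphatase, had 40.2, 78.1, 207, 236 and 266 CPM in the parental tumors and 24, 10.5, 37.3, 265 and 26.2 CPM in the GRKO tumors. It was low in GRKO tumors 1, 2, 3 and 5 and in parental tumors 1 and 2, and did not pass at −1.19 ± 0.85 (adjusted p = 0.445). Phlda1, a pleckstrin domain protein induced by growth signals, had 141 ± 43.8 CPM in the parental and 70.3 ± 21.4 CPM in the GRKO tumors (SD) and differed by −1.0 ± 0.24 (adjusted p = 0.0331). Ccnd1, the cyclin that ERK induces and the most abundant gene of the list, had 694 against 819 CPM (log2 0.24). Of 24 tested immediate-early genes Ccn1 was higher and Nr4a2 lower, with a median of −0.07 (−0.16, 0.03 and 0.02 in the 3 refits, 3 higher and 2 lower in the first, 0 and 0 in the second). Nr4a2, an orphan nuclear receptor, had 38.1 ± 6.86 CPM in the parental and 16.3 ± 3.92 CPM in the GRKO tumors (SD) and differed by −1.22 ± 0.33 (adjusted p = 0.0482), and the most abundant gene was Ier5 (275 against 397 CPM, log2 0.53). Phlda1 lost its call in 6 of the 10 refits and Nr4a2 in 9. Dusp5 kept its call in all 10 refits that left out a tumor.

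Of 24 tested genes of the p53 pathway and CDK inhibitors, 2 were higher and none lower, and the median was 0.06 (−0.06, −0.04 and 0.19 in the 3 refits, 2 higher and 2 lower in the first, 1 and 0 in the second). Cdkn1a, the p21 inhibitor of cyclin-dependent kinases, had 141, 105, 137, 99.7 and 152 CPM in the parental tumors and 258, 316, 282, 206 and 234 CPM in the GRKO tumors. Every GRKO tumor was above every parental tumor, at 1.03 ± 0.20 (adjusted p = 0.0136). Aen, a nuclease induced by p53, had 4.46, 7.44, 3.39, 4.27 and 5.14 CPM in the parental tumors and 15, 14.1, 13.8, 6.41 and 14.7 CPM in the GRKO tumors. GRKO tumor 4 fell among the parental tumors, and the difference was 1.37 ± 0.32 (adjusted p = 0.0296). The summed level of the list was 835, 717, 892, 742 and 864 CPM in the parental tumors and 1103, 1123, 990.5, 1001 and 1022 CPM in the GRKO tumors, without overlap, and its most abundant gene was Phlda3 (166 against 229.7 CPM, log2 0.47). None of 30 tested cell cycle genes was called by edgeR and the median was −0.10 (−0.09, 0.05 and −0.19 in the 3 refits, 3 higher and 2 lower in the first, 0 and 0 in the second), with Top2a, the topoisomerase of dividing cells, the most abundant at 329 against 399 CPM (log2 0.28). Mki67, a marker of dividing cells, had 56.5, 79.7, 47.6, 67.2 and 56.9 CPM in the parental tumors and 40.7, 36, 71.8, 50.9 and 37.4 CPM in the GRKO tumors. Its groups overlapped and differed by −0.38 ± 0.22 (adjusted p = 0.339). None of 12 tested heat shock genes was called, the median was 0.11 (0.09, 0.22 and −0.03 in the 3 refits, 0 higher and 3 lower in the first, 0 and 0 in the second), and the most abundant was Hspa5 (867 against 860.2 CPM, log2 −0.01). Aen lost its call in 6 of the 10 refits. Cdkn1a kept its call in all 10 refits that left out a tumor.

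Of 16 tested neutrophil genes 1 was higher, Il1r2, a decoy receptor for interleukin 1, at 26.9 ± 5.03 CPM in the parental and 45.4 ± 4.87 CPM in the GRKO tumors (SD) and 0.75 ± 0.19 (adjusted p = 0.0396). The neutrophil median was 0.10 (−0.25, 0.19 and 0.68 in the 3 refits, 1 higher and 0 lower in the first, 0 and 0 in the second) and the most abundant gene was Mmp9 (452 against 182 CPM, log2 −1.32). S100a8, a defining neutrophil gene, had 11.3, 41.1, 128, 11.7 and 703 CPM in the parental tumors and 329, 564, 178, 94.2 and 712 CPM in the GRKO tumors. Its levels spread widely within both groups and overlapped. None of 29 tested monocyte and macrophage genes was called by edgeR and the median was 0.06 (−0.0042, −0.002 and 0.18 in the 3 refits, 2 higher and 2 lower in the first, 0 and 0 in the second). C1qa, a complement component of macrophages and the most abundant of them, had 2851, 2477, 2163, 2732 and 1664 CPM in the parental tumors and 6704, 5127, 2929.8, 3991 and 4411 CPM in the GRKO tumors. The groups did not overlap, and the difference of 0.96 ± 0.29 (adjusted p = 0.0781) missed the threshold. Of 21 tested dendritic cell genes 2 were higher, and the median was 0.09 (0.06, 0.14 and 0.75 in the 3 refits, 3 higher and 0 lower in the first, 0 and 0 in the second). They were Itgax, the integrin CD11c, at 1.12 ± 0.27 (adjusted p = 0.0342), and Tlr3, a receptor for double-stranded RNA, at 1.02 ± 0.27 (adjusted p = 0.0485), and the most abundant gene was Fscn1 (1221 against 1112 CPM, log2 −0.13). Il1r2 lost its call in 9 of the 10 refits, Itgax in 6 and Tlr3 in 9.

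Of 24 tested genes of cytotoxic and NK cells 19 had a log2 value above 0 (47.3% of all tested genes did), 1 was called higher and the median was 0.65 (0.56, 0.70 and 1.27 in the 3 refits, 2 higher and 0 lower in the first, 0 and 0 in the second), beside −0.04 over all genes. Ncr1, the activating receptor NKp46 of NK cells, had 1.78, 1.82, 1.95, 2.00 and 2.35 CPM in the parental tumors and 5.42, 6.69, 6.56, 5.56 and 8.23 CPM in the GRKO tumors. The groups did not overlap, and the difference was 1.71 ± 0.43 (adjusted p = 0.0376). The summed level of the list was 631, 538, 460.0, 607 and 388 CPM in the parental tumors and 727, 1099.7, 793, 1127 and 759.8 CPM in the GRKO tumors. GRKO tumors 2 and 4 were the highest and no GRKO tumor was within the parental range, and the most abundant gene was Gzmc (134 against 297 CPM, log2 1.15). Among the GC tumors the list medians were 0.43 for cytotoxic and NK cells, −0.03 for regulatory T cells and costimulation, −0.28 for T cells and 0.23 for B and plasma cells. Of 17 tested genes of regulatory T cells and costimulation 1 was higher and the median was 0.49 (0.38, 0.45 and 0.68 in the 3 refits, 1 higher and 2 lower in the first, 1 and 0 in the second). Tnfrsf18, the costimulatory receptor GITR, had 44.1, 34.9, 29.3, 41.5 and 22.5 CPM in the parental tumors and 99.3, 96.5, 84, 84.2 and 64.6 CPM in the GRKO tumors. All GRKO tumors were higher, at 1.32 ± 0.22 (adjusted p = 0.00410). The list's summed level was 388, 333, 293, 397 and 250.3 CPM in the parental tumors and 431, 445, 416, 572 and 426 CPM in the GRKO tumors, without overlap, and Tnfrsf4, the receptor OX40 and its most abundant gene, had 41.4 against 79.6 CPM (log2 0.95). Foxp3, the defining factor of regulatory T cells, had 18.8, 14.5, 6.89, 16.1 and 8.98 CPM in the parental tumors and 7.18, 23.2, 13.9, 24.6 and 22.9 CPM in the GRKO tumors, with overlap. The part of these cells in the gene differences was not tested. Ncr1 lost its call in 9 of the 10 refits. Tnfrsf18 kept its call in all 10 refits that left out a tumor.

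Of 25 tested T cell genes, 1 was higher, Zap70, the kinase of the T cell receptor, at 19 ± 5.74 CPM in the parental and 54.4 ± 24.3 CPM in the GRKO tumors (SD) and 1.52 ± 0.37 (adjusted p = 0.0331). The T cell median was 0.38 (0.29, 0.45 and 0.82 in the 3 refits, 2 higher and 0 lower in the first, 0 and 0 in the second), and the most abundant gene was Thy1 (121 against 106 CPM, log2 −0.19), which fibroblasts also express. Of the 25 genes 21 had a log2 value above 0, beside 47.3% of all tested genes. The number was 7 of 27 for glucocorticoid receptor targets and 6 of 21 for TGF-β and BMP response genes. Trac was at 0 in the control tumors. Cd3e, a chain of the T cell receptor complex, had 14.5, 5.90, 9.00, 13.7 and 3.76 CPM in the parental tumors and 16.6, 19.6, 9.77, 15.2 and 9.58 CPM in the GRKO tumors, and Cd8a, which marks cytotoxic T cells, had 20.5, 24.6, 11, 22.7 and 11 CPM in the parental tumors and 5.35, 11.4, 18.7, 46.8 and 14.1 CPM in the GRKO tumors. The groups overlapped for Cd3e and for Cd8a. None of 18 tested immune checkpoint genes was called by edgeR, with a median of 0.11 (−0.02, 0.02 and 0.32 in the 3 refits, 1 higher and 1 lower in the first, 0 and 0 in the second) and Cd47, the signal that blocks phagocytosis, the most abundant at 266 against 299.8 CPM (log2 0.17). None of 15 tested B and plasma cell genes was called either, with a median of −0.29 (−0.61, −0.20 and 0.32 in the 3 refits, 1 higher and 2 lower in the first, 0 and 0 in the second) and Cd72 (38.1 against 57 CPM, log2 0.58) the most abundant. Zap70 lost its call in 7 of the 10 refits.

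Interferons switch on a set of antiviral genes through the factor ISGF3, which binds a repeat of GAAA in their promoters. Of 42 tested interferon-stimulated genes 40 had a log2 value above 0 (47.3% of all tested genes did), 5 were called higher and none lower, and the median was 0.87, beside −0.04 over all genes. The summed level was 4088, 3279, 2475, 4281 and 2387 CPM in the parental tumors and 4335, 6308, 4682, 7894 and 4639 CPM in the GRKO tumors. GRKO tumors 2 and 4 had the highest sums and every GRKO sum was above every parental sum, with the most abundant gene Bst2 (214 against 343 CPM, log2 0.68). Usp18, which removes the ubiquitin-like ISG15 and dampens the interferon receptor, had 43.9, 18.6, 17.9, 32.9 and 16.5 CPM in the parental tumors and 82.4, 122, 94.7, 75.7 and 54.1 CPM in the GRKO tumors. No parental tumor reached the GRKO range, at 1.73 ± 0.38 (adjusted p = 0.0260). Igtp, an immunity-related GTPase, had 218, 154, 143, 195 and 137 CPM in the parental tumors and 269.9, 566, 337, 386 and 282 CPM in the GRKO tumors. All GRKO levels were higher, at 1.12 ± 0.27 (adjusted p = 0.0331). Oas2, an enzyme activated by double-stranded RNA, differed by 1.54 ± 0.38 (adjusted p = 0.0348), the nucleic acid sensor gene Zbp1 by 1.44 ± 0.36 (adjusted p = 0.0348) and Oasl2 by 1.07 ± 0.26 (adjusted p = 0.0331). Without GRKO tumor 4 the list median was 0.58 with 8 genes called higher, beside 868 of 15851 over all genes. With the Gm42418 covariate the list median was 0.88 with none called, and without the 5 tumors above 5% Gm42418 it was 1.44. Igtp and Oasl2 are named after their values were seen. Oasl2 lost its call in 7 of the 10 refits, Igtp in 6, Usp18 in 6, Oas2 in 7 and Zbp1 in 7.

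The interferon list had a median of 1.11 in the GC tumors, with 7 called higher, and of −1.41 in the DMSO cultures, where 13 of 30 tested genes were lower in GRKO. Over all genes the medians were 0.01 in both comparisons. In the GC tumors 31 of all 15919 genes were higher, and in the cultures 757 of 12525 were lower (6.04%). Of 25 tested genes of MHC class I presentation 1 was higher, Psmb10, an immunoproteasome subunit, at 167 ± 17.2 CPM in the parental and 318 ± 59.5 CPM in the GRKO tumors (SD) and 0.93 ± 0.21 (adjusted p = 0.0288). Psmb10 lost its call in 5 of the 10 refits. The class I median was 0.01 (−0.20, 0.22 and 0.75 in the 3 refits, 2 higher and 0 lower in the first, 0 and 0 in the second), and the most abundant gene was B2m (10298 against 10401 CPM, log2 0.01), the light chain of class I molecules. None of 15 tested genes of MHC class II presentation was called, with a median of 0.12 (−0.13, 0.15 and 0.59 in the 3 refits, 0 higher and 0 lower in the first, 0 and 0 in the second) and H2-Ab1 (1599 against 2035 CPM, log2 0.35) the most abundant. No gene of the 21 tested inflammatory cytokines and their regulators was called by edgeR, with a median of 0.19 (0.11, 0.22 and 0.37 in the 3 refits, 1 higher and 1 lower in the first, 0 and 0 in the second) and Nfkbia (207 against 187 CPM, log2 −0.14) the most abundant. Of 30 tested chemokine genes 1 was higher, Cxcl16, a membrane-bound chemokine of macrophages, at 337 ± 52.3 CPM in the parental and 634 ± 123 CPM in the GRKO tumors (SD) and 0.91 ± 0.21 (adjusted p = 0.0288). The chemokine median was 0.05 (−0.43, 0.21 and 0.68 in the 3 refits, 1 higher and 2 lower in the first, 0 and 0 in the second) and the most abundant gene was Ccl8 (600.3 against 866 CPM, log2 0.53). Cxcl16 lost its call in 5 of the 10 refits.

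The promoters of this list are shown because its members leaned one way together. The motif GAAANNGAAA was searched on both strands, as that or as TTTCNNTTTC, in the 300 bases around each gene start given by RefSeq on GRCm38.p6. It was present in 21 of the 31 interferon-stimulated promoters with an entry (67.7%) and in 1131 of all 32851 promoters (3.44%), and 11 of the 42 tested genes, Usp18, Oas2 and Zbp1 among them, had no entry. The list was chosen as genes that interferon induces, so these shares do not bear on the genotype difference. Each list gene was counted by its first entry, and the share over all promoters counts every entry. A match describes the letters in this window and does not show a binding site. Of the called genes with an entry, the promoter of Igtp held 1 match and that of Oasl2 none. Among genes that were not called, that of Isg15, the ubiquitin-like modifier, held 3 overlapping matches, and that of Bst2, the membrane tether of budding viruses, 2. Isg15 had 44.7, 34.1, 37.2, 68.5 and 28.9 CPM in the parental tumors and 38.2, 43.5, 67, 174 and 35.5 CPM in the GRKO tumors, with GRKO tumor 4 the highest and the groups overlapping. Its difference of 0.75 ± 0.51 (adjusted p = 0.419) did not pass the test. Capitals mark the matches, 5′ to 3′ on the strand named.
Igtp, chr11:58199306-58199605, plus strand: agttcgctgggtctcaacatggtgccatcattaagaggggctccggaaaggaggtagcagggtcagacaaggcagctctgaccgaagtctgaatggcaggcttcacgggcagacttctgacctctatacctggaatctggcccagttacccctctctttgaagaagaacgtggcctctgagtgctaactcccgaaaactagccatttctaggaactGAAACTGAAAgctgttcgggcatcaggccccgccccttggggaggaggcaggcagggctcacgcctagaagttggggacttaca
Isg15, chr4:156200769-156201068, minus strand: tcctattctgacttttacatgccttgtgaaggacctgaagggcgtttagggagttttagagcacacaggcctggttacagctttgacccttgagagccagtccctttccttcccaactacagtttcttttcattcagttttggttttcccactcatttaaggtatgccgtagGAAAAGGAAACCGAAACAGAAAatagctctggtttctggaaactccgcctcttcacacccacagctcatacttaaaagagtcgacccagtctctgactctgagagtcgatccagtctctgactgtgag
Bst2, chr8:71537423-71537722, minus strand: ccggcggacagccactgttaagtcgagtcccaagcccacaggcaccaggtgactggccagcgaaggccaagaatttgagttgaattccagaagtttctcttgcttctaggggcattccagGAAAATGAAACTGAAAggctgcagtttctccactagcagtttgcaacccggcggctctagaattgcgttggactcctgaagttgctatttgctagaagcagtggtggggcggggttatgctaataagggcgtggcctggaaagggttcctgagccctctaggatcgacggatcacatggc

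Of 34 tested fibroblast and collagen genes 1 was higher and 2 were lower, and the median was −0.10 (−0.20, −0.09 and −0.16 in the 3 refits, 2 higher and 7 lower in the first, 0 and 0 in the second). Col3a1, a fibrillar collagen of skin, had 2557, 3242, 3047, 3089 and 2779.8 CPM in the parental tumors and 1102, 1122, 1448, 2044 and 1658 CPM in the GRKO tumors. The GRKO levels were all lower, at −1.0 ± 0.22 (adjusted p = 0.0252). Col5a2, a collagen that sets fibril width, had 307 ± 51.5 CPM in the parental and 158 ± 37.8 CPM in the GRKO tumors (SD) and differed by −0.96 ± 0.21 (adjusted p = 0.0252), and Acta2, smooth muscle actin, had 529 ± 116 CPM in the parental and 971 ± 114 CPM in the GRKO tumors (SD) and differed by 0.87 ± 0.20 (adjusted p = 0.0288). Col1a1 did not pass, at −0.11 ± 0.17 (adjusted p = 0.746), and the most abundant gene was Sparc (3407 against 4953 CPM, log2 0.54), a matrix glycoprotein. In the DMSO cultures the same list had a median of −1.12, with 2 higher and 13 lower of 25 tested. Over all 12525 genes there the median was 0.01, with 273 higher and 757 lower (6.04% lower). Of 26 tested matrix proteases and their inhibitors 2 were higher and 1 lower (Adamts1), and the median was −0.18 (−0.24, −0.07 and −0.14 in the 3 refits, 4 higher and 3 lower in the first, 1 and 1 in the second). Mmp3, the protease stromelysin 1, had 132, 143, 126, 109 and 153 CPM in the parental tumors and 471, 399.7, 337, 338 and 238 CPM in the GRKO tumors. GRKO tumors were all higher, at 1.43 ± 0.22 (adjusted p = 0.00212). Mmp23 was higher by 1.55 ± 0.31 (adjusted p = 0.0152). The most abundant gene was Timp2, an inhibitor of these proteases, at 2353 against 4246 CPM (log2 0.85, adjusted p = 0.195). Timp2 did not pass, and without the 5 tumors above 5% Gm42418 its value turned to −0.88. Col3a1 lost its call in 5 of the 10 refits, Col5a2 in 4 and Acta2 in 6. Mmp3 and Mmp23 kept the call in all 10 refits that left out a tumor. With the Gm42418 covariate Mmp23 at 1.13 (adjusted p = 0.0527) did not pass. Without the 5 tumors above 5% Gm42418 Mmp23 differed by 0.65.

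Of 24 tested genes of endothelial cells and pericytes 2 were higher and 1 lower, and the median was 0.31 (0.30, 0.27 and 0.31 in the 3 refits, 2 higher and 2 lower in the first, 0 and 0 in the second). Kdr, the VEGF receptor 2 of endothelial cells, had 28.7, 31.2, 14, 37.9 and 22.2 CPM in the parental tumors and 65.1, 55.8, 49.7, 50.5 and 43.1 CPM in the GRKO tumors. The GRKO tumors were all higher, at 0.98 ± 0.26 (adjusted p = 0.0472). Flt1, the decoy-like VEGF receptor 1, went the other way at −0.67 ± 0.16 (adjusted p = 0.0309), and Egfl7, an endothelial matrix protein, was higher at 1.08 ± 0.29 (adjusted p = 0.0470). Pecam1, a defining endothelial gene, did not pass, at 0.52 ± 0.28 (adjusted p = 0.295), and the most abundant gene was Flt1 (196 against 123 CPM, log2 −0.67). Of 30 tested keratinocyte and hair follicle genes 1 was higher and 2 lower, and the median was −0.01 (−0.25, 0.22 and 0.17 in the 3 refits, 3 higher and 5 lower in the first, 0 and 0 in the second). Krt17, a keratin of hair follicles and wounds, had 308, 329, 401, 216 and 722 CPM in the parental tumors and 1858, 1493, 626, 709 and 809 CPM in the GRKO tumors. The groups overlapped, at 1.48 ± 0.34 (adjusted p = 0.0288). Krt1, a keratin of the upper epidermis, was lower at −1.21 ± 0.31 (adjusted p = 0.0422), and Flg, filaggrin of the horny layer, at −1.09 ± 0.29 (adjusted p = 0.0448). Krt14, the basal keratin and most abundant gene of the list, had 615, 589, 896, 527 and 2442 CPM in the parental tumors and 2698, 3447, 2745, 912 and 1581 CPM in the GRKO tumors, with overlap and no call. The summed level of the keratinocyte list was 4787, 4226, 5250, 3933 and 9345 CPM in the parental tumors. In the GRKO tumors the sum was 11690, 12372, 7892, 6483 and 7242 CPM, and the groups overlapped. Kdr lost its call in 9 of the 10 refits, Flt1 in 7, Egfl7 in 8, Krt17 in 6, Krt1 in 8 and Flg in 8.

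None of 29 tested striated muscle genes was called by edgeR, and the median was 0.29 (0.24, 0.33 and 0.45 in the 3 refits, 3 higher and 0 lower in the first, 0 and 0 in the second). Their summed level was 1635, 1602, 1401, 1415 and 1568 CPM in the parental tumors and 2087, 2036, 2320.2, 1667 and 1886 CPM in the GRKO tumors, without overlap, and the most abundant was Tpm1 (666 against 814 CPM, log2 0.29), a tropomyosin that other cells also express. Among the GC tumors the muscle list had a median of −0.79. None of 16 tested adipocyte genes was called, with a median of 0.06 (−0.13, 0.12 and 0.50 in the 3 refits, 0 higher and 2 lower in the first, 0 and 0 in the second) and Cfd (121 against 117 CPM, log2 −0.05) the most abundant, and none of 12 tested mast cell and basophil genes, with a median of −0.27 (−0.33, −0.23 and −0.25 in the 3 refits, 0 higher and 1 lower in the first, 0 and 0 in the second) and Tpsb2 (63.5 against 43.6 CPM, log2 −0.54) the most abundant. Of 6 tested red blood cell genes 1 was higher, Hba-a2, an α-globin gene, at 22.5 ± 9.52 CPM in the parental and 58.6 ± 5.79 CPM in the GRKO tumors (SD) and 1.38 ± 0.35 (adjusted p = 0.0369). The median of that list was 0.28 (0.13, 0.40 and 0.78 in the 3 refits, 2 higher and 0 lower in the first, 0 and 0 in the second) and the most abundant gene was Hbb-bs (54.6 against 69.5 CPM, log2 0.35), a β-globin. Hba-a2 lost its call in 8 of the 10 refits. The part of skin, muscle and blood in the gene differences was not tested.

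Of 29 tested genes of hypoxia and glycolysis 1 was higher and 3 were lower (Hif3a among them), and the median was −0.42 (−0.36, −0.11 and −0.34 in the 3 refits, 2 higher and 7 lower in the first, 0 and 0 in the second). Pdk1, a pyruvate dehydrogenase kinase, had 57.6, 51.1, 62, 58.3 and 59.6 CPM in the parental tumors and 33.6, 49, 32.1, 39.9 and 26 CPM in the GRKO tumors. GRKO tumors were all lower, at −0.68 ± 0.18 (adjusted p = 0.0433). P4ha1, a collagen prolyl hydroxylase, was lower at −0.77 ± 0.21 (adjusted p = 0.0485), and Hk2, a hexokinase, was higher at 0.79 ± 0.19 (adjusted p = 0.0331) with overlap. The most abundant gene was Aldoa (1622 against 1732 CPM, log2 0.09), an enzyme of glycolysis. Of 31 tested genes of cholesterol and lipid synthesis 2 were lower and none higher, and the median was 0.19 (0.24, 0.11 and −0.06 in the 3 refits, 1 higher and 4 lower in the first, 0 and 0 in the second). Scd2, a desaturase of fatty acids, had 359.6 ± 161 CPM in the parental and 127 ± 58.8 CPM in the GRKO tumors (SD) and differed by −1.51 ± 0.40 (adjusted p = 0.0472). Abca1, which exports cholesterol, had 47.6 ± 11.6 CPM in the parental and 26.5 ± 5.42 CPM in the GRKO tumors (SD) and differed by −0.85 ± 0.22 (adjusted p = 0.0427). The most abundant gene was Acly (283 against 415 CPM, log2 0.55). In the DMSO cultures the list had a median of −0.66, with 15 lower of 31 tested, beside 6.04% lower over all genes. Pdk1 lost its call in 8 of the 10 refits, P4ha1 in 9, Hk2 in 7, Scd2 in 8 and Abca1 in 8.

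Of 25 tested genes of glutathione and NRF2 2 were higher, and the median was 0.13 (0.23, 0.20 and −0.01 in the 3 refits, 5 higher and 0 lower in the first, 0 and 0 in the second). Gstm2, a glutathione transferase, had 13.8, 24.4, 18.9, 18.5 and 23.6 CPM in the parental tumors and 55.2, 41.2, 35.9, 41.9 and 35.2 CPM in the GRKO tumors. All GRKO tumors were higher, at 1.08 ± 0.24 (adjusted p = 0.0268), and Pgd, of the pentose phosphate pathway, was higher at 0.69 ± 0.16 (adjusted p = 0.0288). The most abundant gene was Prdx1 (716 against 651 CPM, log2 −0.14), a peroxiredoxin. Of 28 tested genes of Wnt and Notch feedback 2 were lower and none higher, and the median was −0.31 (−0.61, −0.32 and −0.09 in the 3 refits, 2 higher and 5 lower in the first, 0 and 2 in the second). Nkd2, which binds Dishevelled and restrains Wnt signals, had 99.8, 124, 95.6, 98.8 and 86.4 CPM in the parental tumors and 33.9, 49.9, 33, 33.4 and 54.3 CPM in the GRKO tumors. The parental tumors were all higher, at −1.30 ± 0.20 (adjusted p = 0.00212). Dkk3, a secreted protein of the Dickkopf family, had 67.6, 95.2, 92.7, 67.5 and 94.5 CPM in the parental tumors and 37.7, 39.4, 34, 37.1 and 39.5 CPM in the GRKO tumors. Its levels did not overlap either, at −1.15 ± 0.18 (adjusted p = 0.00265), and the most abundant gene was Dkk2 (177 against 241 CPM, log2 0.44). Hes1, a Notch target, had −1.33 ± 0.45 (adjusted p = 0.108) and did not pass. Among the GC tumors it was higher, at 2.01 ± 0.46 (adjusted p = 0.0360), and the difference between control and GC tumors was −3.34 (adjusted p = 0.0330). Gstm2 lost its call in 5 of the 10 refits and Pgd in 7. Nkd2 and Dkk3 kept the call in all 10 refits that left out a tumor.

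Of 23 tested imprinted genes 1 was lower, Peg10, a gene of retrotransposon origin, at 62.9 ± 21.7 CPM in the parental and 31.4 ± 3.84 CPM in the GRKO tumors (SD) and −1.0 ± 0.24 (adjusted p = 0.0331). The imprinted median was −0.12 (−0.04, −0.03 and 0.02 in the 3 refits, 1 higher and 1 lower in the first, 0 and 0 in the second). The most abundant gene was Gnas, at 925 against 1919 CPM (log2 1.05, adjusted p = 0.151), which did not pass. Without the 5 tumors above 5% Gm42418 the Gnas value turned to −1.24. Peg10 lost its call in 6 of the 10 refits. None of 5 tested sex chromosome genes was called, with a median of 0.03 (0.18, −0.00041 and −0.44 in the 3 refits, 1 higher and 0 lower in the first, 0 and 0 in the second) and Ddx3x (739 against 756 CPM, log2 0.03) the most abundant, and 7 listed Y-linked genes were at 0 in the control tumors. Xist, the RNA of the inactive X, had 737, 616, 409, 636 and 468 CPM in the parental tumors and 866, 851, 684, 395 and 858 CPM in the GRKO tumors. Every tumor of both genotypes expressed it, with overlap. No call was made by edgeR among 25 tested genes of IGF and insulin signalling, with a median of −0.14 (−0.15, −0.15 and −0.12 in the 3 refits, 1 higher and 4 lower in the first, 0 and 0 in the second) and Igf2bp2 (174 against 298 CPM, log2 0.77) the most abundant. The 22 tested genes of calcium and PKC signalling had no call either, with a median of −0.22 (−0.28, −0.11 and 0.25 in the 3 refits, 0 higher and 1 lower in the first, 0 and 1 in the second) and Rgs2 (181 against 130.4 CPM, log2 −0.47) the most abundant. Among the lists with no called gene, the median ran from −0.36 to 0.29. Across all tested genes 3180 had an unadjusted p under 0.05 and DESeq2 called 1001.

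**Figure D3:**
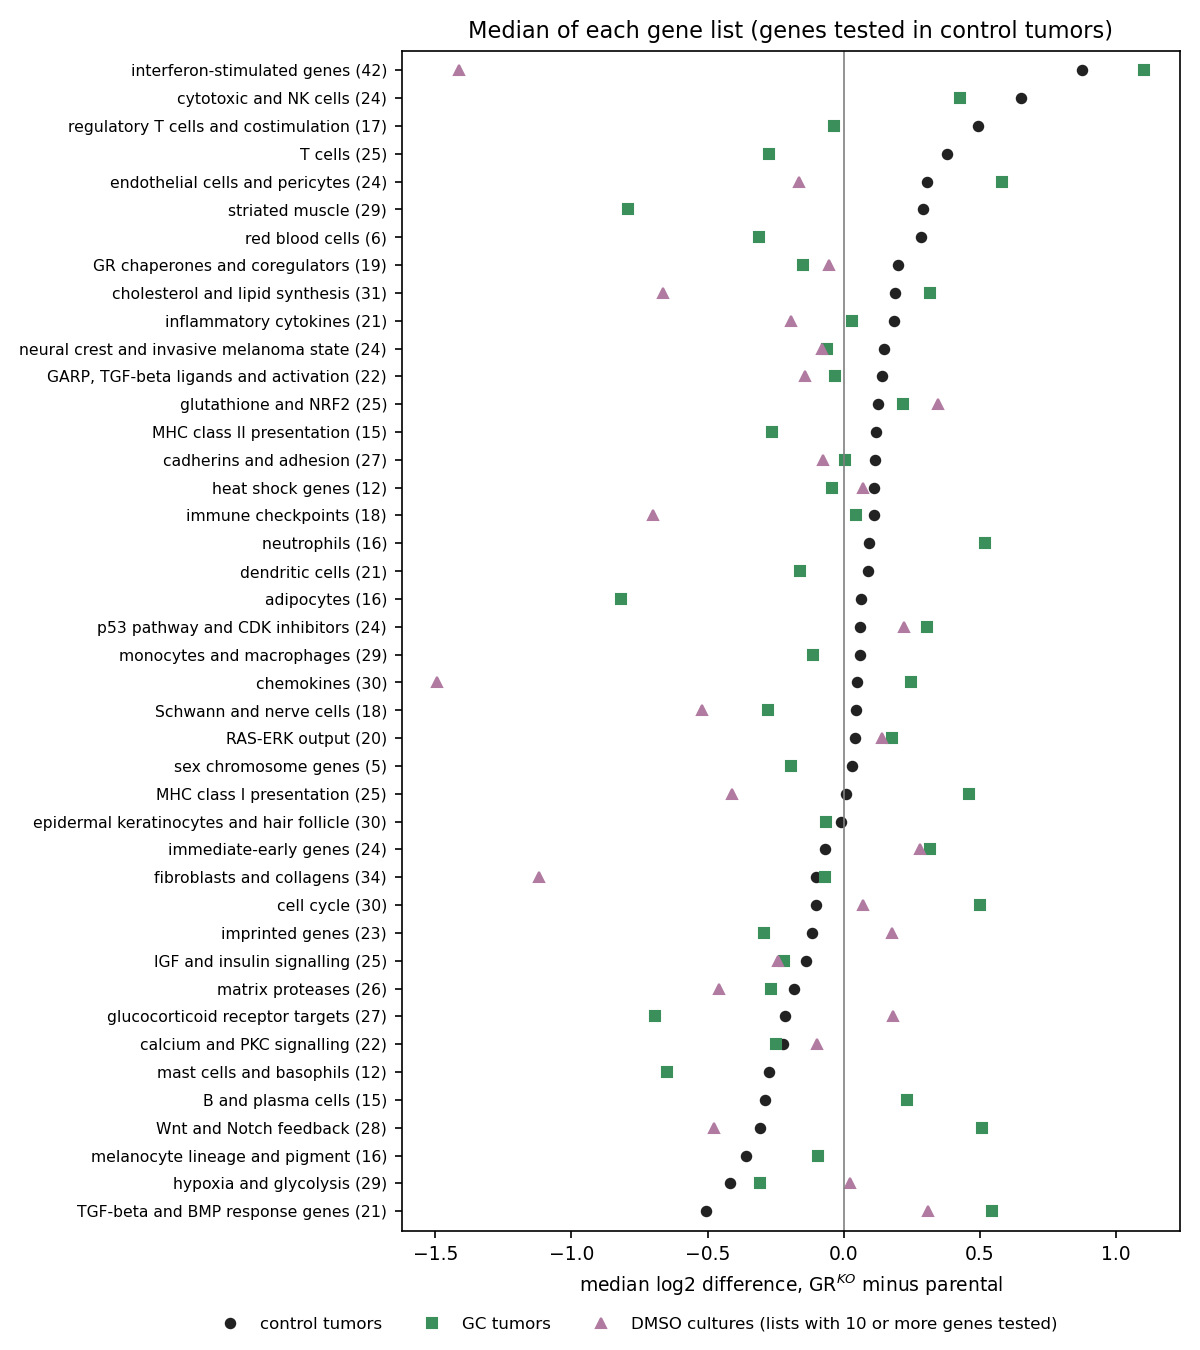
Median log2 difference, GRKO minus parental, of each gene list in control tumors, GC tumors and DMSO cultures. Each point is the median over the tested genes of a list, with their number in brackets, and cultures are drawn where 10 or more genes were tested. The interferon-stimulated list lies at 0.87 in control tumors, 1.11 in GC tumors and −1.41 in DMSO cultures.

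The same genotypes were also compared in the GC tumors and in the DMSO cultures. The GC tumors are other samples, but they shared the filter, scaling and fit of the control comparison. With the 2 groups of control tumors fitted alone, 154 genes were called. Between the GC tumors 101 of 15919 genes were called (0.634%), 31 higher and 70 lower in GRKO. Of the 358 genes called in control tumors 26 were called in the GC tumors in the same direction, 5 higher and 21 lower, and 0 in the opposite direction. The 5 higher genes were Gfra2, Ifi208, Oasl2, the laminin chain gene Lamb3 and a predicted gene. Of the 358 genes 55.9% had the same sign in the GC tumors, beside 42.1% of all tested genes. By direction, the share was 50.7% of the higher and 62.4% of the lower genes. Across the 358 genes the differences in the 2 sets of tumors had a Pearson r of 0.57 and a Spearman rho of 0.32, and across all genes 0.05 and −0.13, where genes are not independent replicates. The count of 101 went to 47 and 54 without parental GC tumors 2 and 4 and to 52, 46 and 40 without GRKO GC tumors 1, 3 and 5.

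The test of whether the genotype difference itself differed between control and GC tumors called 31 genes (0.195%), of which 20 had the higher value in the control tumors and 11 in the GC tumors, and 17 of them were among the 358. Thus for 341 of the 358 genes a difference between control and GC tumors was not detected at this threshold. Ccn1 differed by 1.63 ± 0.36 in control tumors. Its value in GC tumors was −0.82 ± 0.35, not called (adjusted p = 0.369), and the difference was 2.45 (adjusted p = 0.0392). Gstm2 differed by 1.08 ± 0.24 in control tumors. In GC tumors its value was −0.67 ± 0.24, not called (adjusted p = 0.258), and the difference was 1.75 (adjusted p = 0.0330). Ccdc3 was lower in both sets, by −2.38 ± 0.38 in control and −4.95 ± 0.42 in GC tumors, a difference of 2.57 (adjusted p = 0.0375). The count of 31 went to 0 without parental control tumor 3 (2643 at an unadjusted p under 0.05, 227 by DESeq2) or GRKO control tumor 2 (2624 and 303), and to 1288 without GRKO control tumor 4. It was 9, 10 and 8 without parental control tumors 1, 4 and 5, and 6 without GRKO control tumor 1. Leaving out parental GC tumors 2 to 5 gave 4, 73, 3 and 5, and leaving out GRKO GC tumors 1, 2, 3 and 5 gave 6, 67, 4 and 2.

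In the DMSO cultures 1030 of 12525 genes were called (8.22%), 273 higher and 757 lower in GRKO. Of the 300 genes called in control tumors that could be tested in the cultures, 44.7% had the same sign, beside 39.0% of all genes. By direction, the share was 37.2% of the higher and 53.7% of the lower genes. Of the higher genes 11 were called in the same and 22 in the opposite direction, and of the lower genes 32 in the same and 3 in the opposite direction. Across those genes the Pearson r was 0.27 and the Spearman rho 0.03, and across all 12278 genes tested in both −0.05 and −0.25. Lower in control tumors, GC tumors and cultures alike were 13 genes, which were Mgp, Dio2, Cdh11, Ccdc3, Col11a1, Agt, Nkd2, Dkk3, Kctd15, Osbpl6, Sall3, Zfp618 and Etl4, and 1 predicted gene was higher in all of them. Dkk3 had 350, 450 and 373 counts in the parental DMSO cultures and 0, 1 and 0 counts in the GRKO DMSO cultures. Col11a1 had 256, 396 and 303 counts in the parental DMSO cultures and 0, 2 and 0 counts in the GRKO DMSO cultures. Cdh11 had 48, 35 and 45 counts in the parental DMSO cultures and 0, 1 and 0 counts in the GRKO DMSO cultures. These 3 genes were at or under the floor of 3 counts in every GRKO culture and above it in every parental culture. Ccdc3 had 22, 14 and 17 counts in the parental DMSO cultures and 0, 0 and 0 counts in the GRKO DMSO cultures, and Agt had 22, 11 and 17 counts in the parental DMSO cultures and 0, 0 and 0 counts in the GRKO DMSO cultures. Neither was detected in a GRKO culture, where 0 counts allow a level of up to 3 counts. Nkd2 had 278, 311 and 247 counts in the parental DMSO cultures and 25, 12 and 27 counts in the GRKO DMSO cultures. It was detected in all 6 cultures and differed by −3.96 ± 0.35 (adjusted p = 4.74e-05), and in the GC tumors by −1.06 ± 0.20. The count of 1030 went to 682 without parental culture 1 and to 647 and 594 without GRKO cultures 1 and 2.

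Positions along the genome showed a further difference between the lines. In the DMSO cultures 363 of 475 tested genes on chromosome 15 (76.4%) had a log2 value below 0, with 84 called lower (17.7%, beside 6.04% over all genes) and 3 higher. The median on chromosome 15 was −0.34, beside 0.01 over all genes. By sample, the median against the parental DMSO cultures was −0.31, −0.34 and −0.27 in the GRKO DMSO cultures and −0.32, −0.22 and −0.25 in the GRKO cultures with glucocorticoid. All 6 GRKO cultures were lower than the parental cultures, which lay between −0.04 and 0.03. The other chromosomes had medians from −0.10 to 0.15 in the GRKO cultures. In the tumors the chromosome 15 median was 0.03 in the control and −0.09 in the GC comparison, and the number of copies of chromosome 15 was not measured. The 19 mitochondrial genes tested in the control tumors had a median of −0.86 with 3 called lower and 0 higher, and in the GC tumors their median was −0.05.

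**Figure D4:**
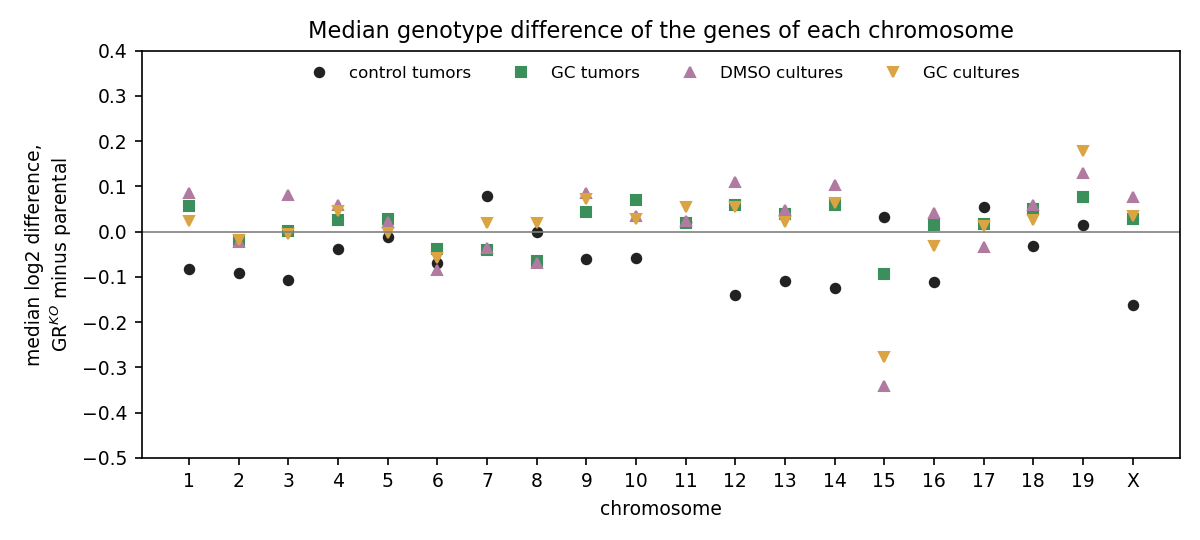
Median log2 difference, GRKO minus parental, of the genes of each chromosome. Each point is a comparison of the genotypes, in control tumors, GC tumors, DMSO cultures or cultures with glucocorticoid, and on chromosome 15 the cultures lie at −0.34 and −0.28.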

How the data were processed

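The deposited values are raw read counts per gene that the authors made with Trim Galore 0.6.5, STAR 2.6.1d (single-end, GRCm38) and featureCounts with the Ensembl release 75 annotation, checked with FastQC 0.11.7 and MultiQC 1.4. The labels do not give the strand setting. The 20 tumors were fitted together in 4 groups and the 11 cultures in another fit, in edgeR 4.0.16 (R 4.3.3, limma 3.58.1) with TMM scaling and the quasi-likelihood test, on genes with at least 0.5 CPM in 3 or more samples (15919 genes in tumors, 12525 in cultures). P-values were adjusted by Benjamini-Hochberg over all genes tested, and a called gene has a linear fold of at least 1.5 with adjusted p under 0.05. SEs were derived from the F statistic. Exact permutation tests compared the group means of the library measures themselves, without a log, two-sided, and 5 against 5 allows no p under 0.00794. CPM of genes are scaled by the TMM factors, and shares of counts are of the total. The floor of 3 counts was 0.114 to 0.193 CPM of the total counts in the control tumors, and floors and intervals cover counting error only. The fits were also run on simulated data, and those results are not given here. Alternatives were DESeq2 1.42.0, other scaling, filters, fold thresholds and covariates, the compared groups alone, and each sample left out. Another 3, on Gm42418, were chosen after seeing the data. Named genes are, on the higher and on the lower side, the 12 called genes with the largest difference among those with no overlap between groups and a higher mean of at least 5 CPM, Nr3c1, and from each of 42 lists up to 3 called genes per direction and the most abundant gene. The tumors and lists were chosen with earlier results of these data known. Other list members are named as well-known members of their list, with their values seen. Results for some genes that the rule or the lists name are not reported here. Of 981 list genes 977 were in the counts and 895 were tested. Positions came from a mouse annotation on GRCm38 that matched 37607 of 39179 genes. Figures were drawn with Python 3.11.15 and matplotlib 3.10.9.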

Additional observations from a re-analysis of the deposited data

Results flagged for a closer look

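Among 234 groups of 5 control tumors, each a library measure, a named gene or a list sum, 20 held a tumor farther from its group than Dixon's 95% limit (8.55%), and chance flags about 1 in 20 groups. Many of these measures share genes and tumors. Parental tumor 1 was high in its share of Gm42418 (5.55%) and of the 50 most abundant genes (22.3%) and in the sum of the GARP and TGF-β list (2186 CPM), and parental tumor 2 was high in its mitochondrial share (2.47%). Parental tumor 5 stood apart in Pdgfrl (16.5 CPM) and in the sums of keratinocyte (9345 CPM), hypoxia (6923 CPM) and glutathione genes (2447 CPM). GRKO tumor 1 stood apart in Eya1 (46.1 CPM), Phlda1 (33.6 CPM) and Col5a2 (91.9 CPM), and GRKO tumor 5 in Psmb10 (216 CPM). For Fam107a the value in GRKO tumor 4 (0.0386 CPM) is 1 count against 0 in the other GRKO tumors, under the floor of 3 counts, and with zeros in the other 4 the ratio is 1 at any count. GRKO tumor 4 stood apart in Aen (6.41 CPM) and the sums of the TGF-β and BMP response genes (2009 CPM), regulatory T cell and costimulation genes (572 CPM), MHC class II (10246 CPM), MHC class I (26946 CPM), sex chromosome genes (924 CPM) and calcium and PKC genes (913 CPM). Among the genes named by their difference or in a list, under the rule for naming, the GRKO minus parental difference itself differed between control and GC tumors for Sult5a1 (3.78, adjusted p = 0.0151 in edgeR), Ccn1 (2.45, 0.0392), Col10a1 (−3.75, 0.0330), Ccdc3 (2.57, 0.0375), Mt1 (1.90, 0.0223) and Gstm2 (1.75, 0.0330). Causes were not tested.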

How the results depend on the processing

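With the replicate number as a block (paired by number) the control tumors gave 363 called genes (217 higher, 146 lower), the GC tumors 160, the cultures 829 and the interaction 144, and the labels do not say that numbers pair the tumors. Same-number correlations of centred levels were −0.07 to 0.27 between the genotypes in control tumors (4 of 5 over 0.1, 2 of 5 best with their own number), 0.10 to 0.39 in GC tumors and −0.54 to 0.41 over all 30 pairs. Without the control tumors above 5% Gm42418, where the lone GRKO tumor is taken to vary like the other groups, the called genes were 0 in control tumors (0 higher, 0 lower; smallest adjusted p 0.101) and 0 for the interaction (922 at an unadjusted p under 0.05 in edgeR, 47 in DESeq2), Nr3c1 was −0.73 (adjusted p = 1) and Dusp5 turned to −0.33. Gm42418 left out of the counts gave 356. The Gm42418 covariate gave 69 (15 higher, 54 lower), 225 in GC tumors, 155 in cultures and Nr3c1 −0.88 (adjusted p = 0.0983). The covariate for genes detected gave 51 (11 higher, 40 lower), 362 in GC tumors, 2790 in cultures, 15 for the interaction and Nr3c1 −0.63 (adjusted p = 0.356). DESeq2 gave 1001 (631 higher, 370 lower), 293 in GC tumors and 784 for the interaction. The compared groups alone gave 154 (108 higher, 46 lower), and a fold of at least 2 gave 238 (132 higher). At least 10 counts in every sample gave 661 in cultures and 66 for the interaction, and no filter gave 49 for the interaction. Leaving out each sample gave 61 to 1762 called genes in control tumors (20 to 868 higher, 39 to 894 lower), 40 to 114 in GC tumors, 594 to 916 in cultures and 0 to 1288 for the interaction, with Nr3c1 from −1.09 to −0.94. DESeq2 size factors gave 368 and upper-quartile scaling 325 in control tumors. Several most abundant list genes, none of them called, turned below 0 without the control tumors above 5% Gm42418. Besides Timp2 and Gnas they included Cdh13 (−0.49), Nes (−0.46), Sparc (−0.43), Pmepa1 (−0.54) and Acly (−0.42). The causes of the changes between settings were not tested. Depth limits genes under the floor of 3 counts, such as Hif3a and Fam107a in the GRKO tumors.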
